A study of Mus musculus with 31 samples.

Results

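Lists of binding sites of different factors were compared within the same kind of tumor, mouse lung adenocarcinomas that had kept the Nkx2-1 gene: the deposited peaks of Nkx2-1 and those of Foxa1/2. A site counted as shared where a peak of one list overlapped a peak of the other by at least 1 bp, and otherwise as Nkx2-1 only or Foxa1/2 only. The lists held 29782 Nkx2-1 peaks and 23039 Foxa1/2 peaks, together 52821 of the 526837 intervals in the 11 lists of the series. Peaks that overlapped were joined into 38394 sites, of which 15602 (40.6%) were Nkx2-1 only, 13899 (36.2%) were shared and 8893 (23.2%) were Foxa1/2 only.

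Chromatin immunoprecipitation with sequencing measures where a protein sits on DNA, and a peak is a stretch with more reads than its control. Each list came from 2 libraries, 4 of the 31 samples of the series, with an input control paired to each library. All 4 libraries were from male mice of a mixed 129/B6 background aged 4 to 7 months. According to the protocols, tumors were started with adenovirus or lentivirus given through the trachea, and tamoxifen was given in a low or a high dose; which mouse received which, and the alleles and promoters involved, are not given in the sources used here. The tumors were ground whole, so each library mixes the cells of a tumor and their number cannot be told apart from binding per cell. Both files of each list were identical, so each factor gave 1 merged list and nothing below has a replicate check. The lists hold no read totals, so their depth is unknown.

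Nkx2-1 is a homeodomain transcription factor that sets up and maintains lung epithelium, where it drives the genes of surfactant proteins. Foxa1 and Foxa2 are forkhead factors of endoderm-derived tissues, among them lung, liver and stomach; they can bind their sites in closed chromatin and help open it. A single antibody against both was used, so Foxa1 and Foxa2 cannot be told apart. Forkhead and homeodomain factors are often found at the same enhancers, which are marked by H3K4me1 and, when active, by H3K27ac.

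The peaks carry the caller's score, which ran from 60 to 3182 for Nkx2-1 (median 161) and from 60 to 3233 for Foxa1/2 (median 184); these are the authors' values, used here only to rank or group peaks within a list. Shares are given with 95% Wilson intervals and medians with 95% intervals from ranks. Both cover counting error over peaks only. Variation along the genome is given over 20 chromosomes (19 autosomes and X), and variation between mice was not measurable. The lists name no genes, and the gene table at hand is of another build than mm9, the build of the peaks, so sites are given by position and no site was assigned to a gene or a sequence.

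Of the Nkx2-1 peaks 47.6% (47.0 to 48.2) were shared, and of the Foxa1/2 peaks 61.4% (60.8 to 62.0). Across chromosomes these shares were 47.7% ± 3.24 and 61.01% ± 3.18 (SD, n = 20 chromosomes). As a background, all peaks of 1 list were moved together along each chromosome in steps of 5% of its length, which keeps their mutual spacing. Over the 19 such placements a mean of 1.91% of Nkx2-1 peaks (1.75 to 2.06) and 2.44% of Foxa1/2 peaks (2.24 to 2.62) overlapped the other list. The observed sharing was above all 19 placements for both lists. The placements take no account of where genes, gaps and unmappable stretches lie.

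Sharing was nearly always a matter of 1 peak against 1 peak. Of the shared Nkx2-1 peaks 13936 overlapped a single Foxa1/2 peak, 241 overlapped 2 and 3 overlapped 3. The overlap was also deep. In a median pair the shorter peak lay wholly inside the longer one, 96.4% of the 14427 pairs overlapped by at least 50% of the shorter peak, and in 90.3% each summit lay inside the other's peak. At the edge of the rule, 103 pairs overlapped by 1 to 50 bp, with a median summit distance of 945 bp, and 137 pairs missed overlap by a gap of at most 50 bp.

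The summits, the points of highest read density within each peak, lay close together but not at the same base. The distance between the Nkx2-1 and the Foxa1/2 summit had a median of 70 bp (68 to 71), with 25% of pairs at 29 bp or less and 75% at 171 bp or less. Within 50 bp lay 39.5% (38.7 to 40.3) of pairs, within 100 bp 61.9% and within 200 bp 77.5%. Overlapping pairs in the moved placements had summits a mean of 518 bp apart (median within each placement, 471 to 541). Every chromosome had a median between 58.5 bp (chromosome 17) and 80.0 bp (chromosome 7).

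A yardstick for these distances came from the same Foxa1/2 antibody in positive and in Nkx2-1-deleted tumors, the latter from female mice of the same background and age. In those 9766 overlapping pairs the summits lay a median of 22 bp apart (21 to 23), and 75.7% were within 50 bp. The range over chromosomes, 19.0 to 26.5 bp, did not overlap that of Nkx2-1 against Foxa1/2. The summits of Nkx2-1 and Foxa1/2 were therefore further apart than those of a single antibody in positive and deleted tumors.

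**Figure D1:**
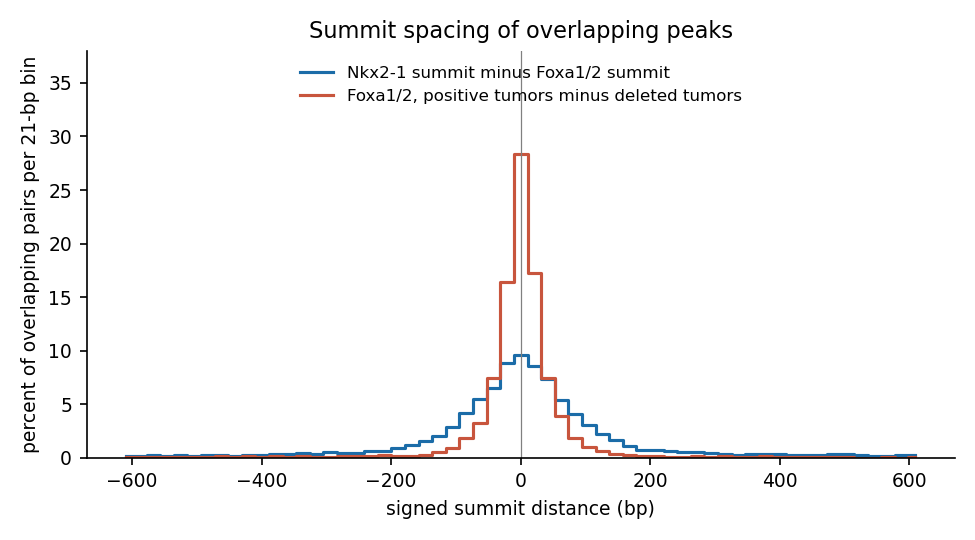
Signed distance between the summits of overlapping peaks (x axis, bp) against the percent of pairs in each bin of 21 bp (y axis), for Nkx2-1 minus Foxa1/2 in positive tumors (14427 pairs) and for Foxa1/2 in positive minus deleted tumors (9766 pairs). Both curves have 1 maximum at 0, with 9.57% of Nkx2-1 and Foxa1/2 pairs and 28.4% of Foxa1/2 pairs in the central bin.

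The signed distances formed a single maximum at 0. The central bin of 21 bp held 1381 pairs, the bins at -21 and 21 bp held 1274 and 1231, those at -42 and 42 bp held 947 and 1056, and those at -63 and 63 bp held 794 and 781. Counts fell on both sides with each step away from 0 over this range. No bin further out held more pairs than these, and no second maximum was seen.

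Neither order was preferred. Nkx2-1 lay at the lower coordinate in 7105 pairs and at the higher in 7235, with 87 pairs at the same base, so that 49.5% (48.7 to 50.4) of unequal pairs had Nkx2-1 first. The share was above 50% on 9 of 20 chromosomes and ran from 44.7% to 53.5%. It was 49.3% (47.9 to 50.6) for pairs within 50 bp, 49.7% (48.4 to 51.01) for pairs up to 200 bp and 49.8% (48.1 to 51.5) beyond. Order here is along the chromosome. A peak list does not give the strand of the bound motif, so an order relative to the motif could not be seen.

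Summit distance was shorter at higher scores for the same antibody, and changed less with score for the different factors. Each list was divided by score into 10 groups of equal size, group 1 with the lowest scores, and a pair was placed by the lower-ranked of its peaks. For Foxa1/2 in positive and deleted tumors the median distance went from 35.0 bp (32 to 39) in score group 1 to 12.0 bp (11 to 13) in group 10. For Nkx2-1 and Foxa1/2 it went from 77.0 bp (71 to 82) to 61.0 bp (55 to 69). The share of Nkx2-1 and Foxa1/2 pairs more than 200 bp apart was 23.7% in group 1 and 22.8% in group 10, against 9.30% and 3.02% for Foxa1/2 alone.

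**Figure D2:**
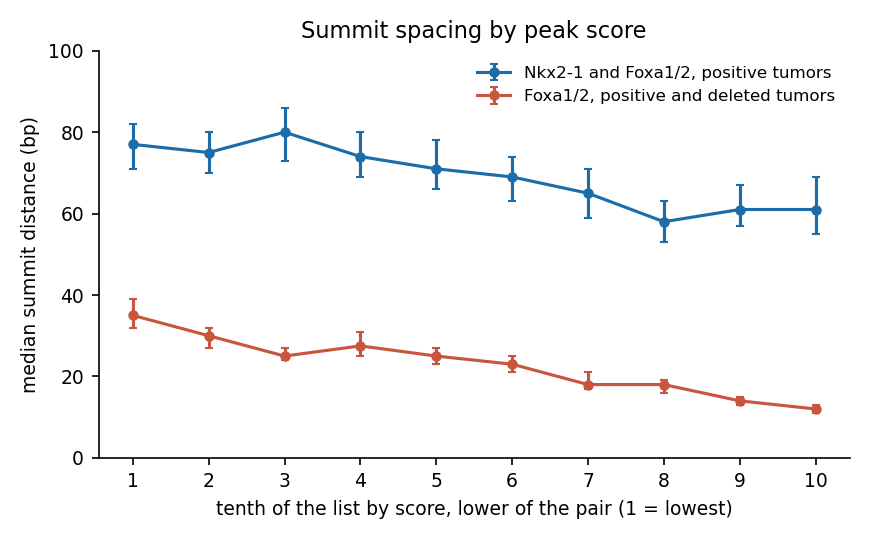
Median summit distance (y axis, bp, with 95% intervals) by the score group of the lower-ranked peak of the pair (x axis, 10 groups, 1 is the lowest score). Nkx2-1 and Foxa1/2 pairs stayed between 58.0 and 80.0 bp, while Foxa1/2 pairs of positive and deleted tumors went from 35.0 to 12.0 bp.

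Shared peaks of either factor scored higher than unshared ones. Nkx2-1 peaks had a median score of 245 (239 to 250) when shared and 122 (121 to 124) when not, and 76.2% (75.5 to 76.9) of the shared ones were above the median of the unshared. Foxa1/2 peaks had median scores of 257 (250 to 263) and 125 (123 to 128), with 74.2% (73.4 to 74.9) of shared peaks above the unshared median. On each of the 20 chromosomes the shared peaks had the higher median in either list. Among peaks with a score of at least 1000, 1342 Nkx2-1 peaks were shared and 150 were not, and 2253 Foxa1/2 peaks were shared and 209 were not.

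The shared portion rose through all 10 score groups in both lists. In the Foxa1/2 list it went from 38.5% (36.5 to 40.5) in group 1 to 91.8% (90.7 to 92.9) in group 10. In the Nkx2-1 list it reached 52.2% in group 7, 72.5% in group 9 and 85.0% (83.6 to 86.2) in group 10. The 500 highest-scoring Foxa1/2 peaks were shared in 97.0% of cases (95.1 to 98.2), and the 500 highest-scoring Nkx2-1 peaks in 93.0% (90.4 to 94.9). Scores pile up at 3100, a value held by 59 Nkx2-1 and 310 Foxa1/2 peaks, so ranks among the strongest Foxa1/2 peaks are partly ties.

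The overlap between the strongest peaks of each list depended on how many were taken. Of the top 500 Nkx2-1 peaks 80 (16.0%, interval 13.0 to 19.5) overlapped one of the top 500 Foxa1/2 peaks, of the top 1000 225 (22.5%) did so against the top 1000, of the top 5000 1931 (38.6%) and of the top 10000 4592 (45.9%), against 47.6% with no limit on rank. These counts grow with the number taken, since the top 500 are 2.17% of the Foxa1/2 list and the top 10000 are 43.4% of it. In the 13426 pairs of 1 peak with 1 peak, the Spearman correlation of the scores was 0.28 as a description, and between 0.23 and 0.34 on single chromosomes; the points share libraries and tumor chromatin. An Nkx2-1 peak in group 1 had a partner with a median Foxa1/2 score of 169.5 (155 to 191), which is the 47.3rd percentile of the whole Foxa1/2 list. In group 5 the partner's median was 196 (181 to 213) and in group 10 it was 545 (512 to 587), the 79.7th percentile. The partner's score thus changed little across the lower part of the Nkx2-1 list and rose mainly at its top, where 31.8% of partners belonged to Foxa1/2 group 10. In the other direction, partners of Foxa1/2 peaks in groups 1 and 10 had median Nkx2-1 scores of 168 (156 to 187) and 489 (462 to 517).

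Shared peaks were also wider, and width rose with score. Median widths were 1027 bp (1021 to 1033) for shared and 858 bp (855 to 862) for unshared Nkx2-1 peaks, and 1038 bp (1032 to 1044) and 874 bp (870 to 877) for Foxa1/2 peaks. Score and width were closely related in both lists (Spearman 0.82 over Nkx2-1 peaks and 0.85 over Foxa1/2 peaks, as descriptions). Within a score group the difference was smaller over most of the range: between 4 and 23 bp in groups 1 to 8 of the Nkx2-1 list and between 4 and 64 bp in those of the Foxa1/2 list. In group 10 shared peaks were wider by 171 bp for Nkx2-1 (1466 against 1295 bp, wider on 17 of 20 chromosomes) and by 168.5 bp for Foxa1/2 (1507 against 1338.5 bp, wider on 19 of 20). The mean position of the summit was 49.96% to 50.3% of the width in every class. Single peaks varied around it, with SDs from 7.84 points (Foxa1/2 only) to 10.7 points (shared Nkx2-1 peaks).

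**Figure D3:**
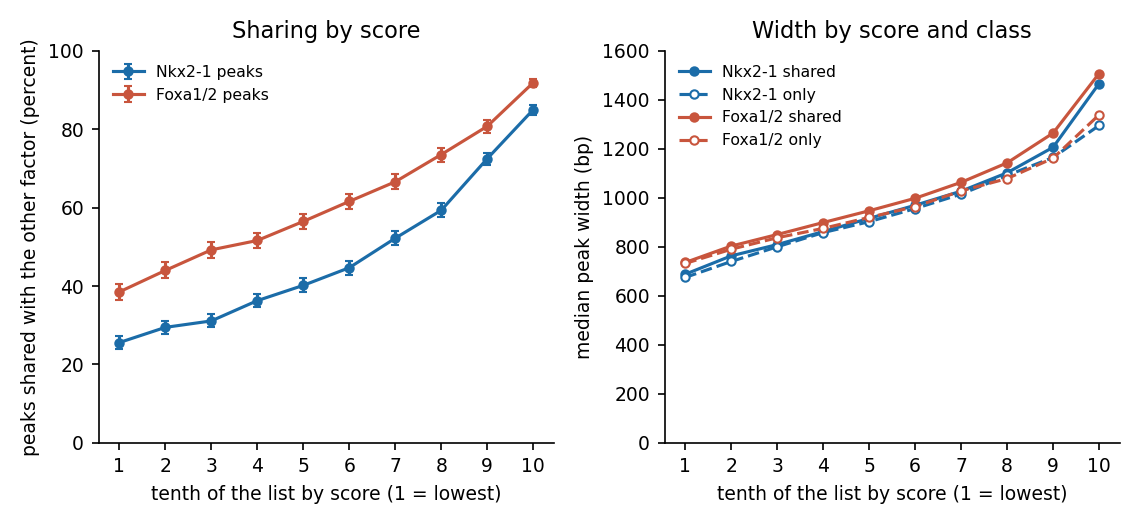
Left, percent of peaks shared with the other factor (y axis, 95% Wilson intervals) by score group (x axis, 10 groups). Right, median peak width (y axis, bp) of shared (filled) and unshared (open) peaks by the same groups. Sharing rose from 25.6% to 85.0% for Nkx2-1 and from 38.5% to 91.8% for Foxa1/2, and widths of shared and unshared peaks parted mainly in groups 9 and 10.

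Unshared peaks lay nearer to the other factor than in the moved placements, which ignore gaps and unmappable stretches. The median distance from an Nkx2-1-only summit to the nearest Foxa1/2 summit was 12981 bp (12533 to 13399), against a mean of 96276 bp (87003 to 107382) when the same peaks were moved along their chromosomes. From a Foxa1/2-only summit to the nearest Nkx2-1 summit it was 10641 bp (10178 to 11095), against 87357 bp (80925 to 98282). Over all peaks, the nearest summit of the same list lay a median of 7505 bp away for Nkx2-1 and 10234 bp for Foxa1/2. These same-list distances include shared peaks, while the distances above are of unshared peaks, which by definition have no overlapping peak of the other factor. The sets are therefore not alike, and no conclusion is drawn from setting them side by side. Within 10 kb of the other factor lay 43.8% (43.0 to 44.6) of Nkx2-1-only and 48.5% (47.4 to 49.5) of Foxa1/2-only summits, and 13.5% and 16.1% in the moved placements. Within 1 kb the shares were 1.19% and 1.56%, which the class itself holds down, since a peak that near would mostly overlap. Where sharing was defined by summits within 200 bp instead of by overlap, the median distances were 8652 and 5338 bp. Which of these distances was the longer depended on the lists: with only the 23039 highest-scoring Nkx2-1 peaks kept, they were 12347 bp from Nkx2-1-only and 13367 bp from Foxa1/2-only summits. On chromosome X the median distances were the longest of all chromosomes, 28197 bp from Nkx2-1-only and 26465 bp from Foxa1/2-only summits. Chromosome X also held the fewest peaks per Mb of both factors, in libraries that were all from males.

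**Figure D4:**
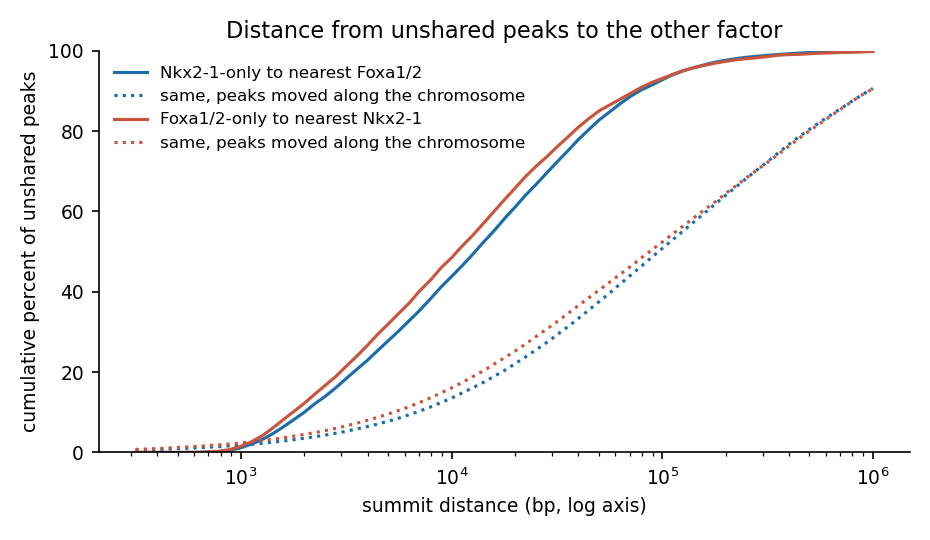
Cumulative percent of unshared peaks (y axis) by distance from their summit to the nearest summit of the other factor (x axis, bp, log axis). Solid lines are the deposited positions and dotted lines the mean of 19 placements of the same peaks moved along their chromosomes. The solid lines pass 50% near 13 and 11 kb, the dotted ones near 96 and 87 kb.

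The nearest neighbor of an unshared peak tended only slightly to be a shared one. Of Nkx2-1-only peaks with a Foxa1/2 summit within 10 kb, the nearest Foxa1/2 peak was itself shared in 65.2% (64.1 to 66.4), against 61.4% of the whole Foxa1/2 list, and the share was above the list's on 16 of 20 chromosomes. Of Foxa1/2-only peaks with an Nkx2-1 summit within 10 kb, the nearest was shared in 51.7% (50.2 to 53.2), against 47.6% of the whole list, above it on 18 of 20 chromosomes. Stated over sites, a shared site had another shared site as its neighbor in 42.3% of neighbors within 10 kb, while shared sites made up 36.2% of all sites; this held on 20 of 20 chromosomes. Beyond 10 kb the figure was 35.2%. An Nkx2-1-only site had another Nkx2-1-only site as its neighbor within 10 kb in 43.7%, against 40.6% of all sites, and Foxa1/2-only sites did so with their own class in 23.3%, against 23.2% (above it on 10 of 20 chromosomes). Beyond 10 kb both unshared classes had their own class as neighbor more often than its share of sites, Nkx2-1 only in 44.8% (20 of 20 chromosomes) and Foxa1/2 only in 26.7% (19 of 20).

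Both factors bound in clusters. Another summit of the same list lay within 10 kb of 57.5% (57.0 to 58.1) of Nkx2-1 summits and 49.4% (48.8 to 50.1) of Foxa1/2 summits. The same number of points spread evenly at random over each chromosome would give 21.8% and 17.1% by formula, so the observed shares were 2.64 and 2.90 times as high, and they were above the formula on 20 of 20 chromosomes. Within 2 kb the shares were 16.0% and 11.5%, against 4.81% and 3.68%, and within 50 kb 89.6% and 84.9%, against 69.9% and 60.4%. Even spread takes no account of where genes, gaps and unmappable stretches lie.

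Shared sites were the most clustered class and Foxa1/2-only sites the least. Another site of any class lay within 10 kb of 69.8% (69.1 to 70.6) of shared sites, 63.7% (63.0 to 64.5) of Nkx2-1-only sites and 59.02% (58.0 to 60.04) of Foxa1/2-only sites. Shared sites were above each other class on 20 of 20 chromosomes, and Nkx2-1-only sites above Foxa1/2-only sites on 19. The median gap to the nearest site was 4300 bp, 5482 bp and 6605 bp in the same order.

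Joining all neighboring summits up to 10 kb apart gave 22423 groups. Single summits made up 9863 of them, and 2395 groups (10.7%) held 5 or more summits, which together contained 32.6% of all summits. The mixture of factors varied little among groups of several summits: Nkx2-1 gave 56.2% of summits in groups of 3, 55.5% in groups of 5 and 54.8% in the 377 groups of 10 or more, against 56.4% overall. In the groups of 10 or more 61.7% of Nkx2-1 and 76.2% of Foxa1/2 peaks were shared, in groups of 2 65.1% and 77.95%, and in groups of 3 50.3% and 64.05%. The counting shapes these shares, since a lone shared pair forms a group of 2 and a group of 3 mostly holds an unshared peak. No course of sharing with group size is therefore read from them. All 377 groups of 10 or more held both factors, which the number of summits makes likely by itself.

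The largest groups lay on chromosomes 6 and 9 (mm9). That on chromosome 6 at 72546849 to 72634936 held 18 Nkx2-1 and 14 Foxa1/2 summits over 88.1 kb, a median of 1937 bp apart, and 10 peaks of each list were shared. The group on chromosome 9 at 70054629 to 70123728 held 15 and 13 summits, also with 10 shared peaks of each, and that on chromosome 6 at 31011281 to 31065364 held 14 and 12, with 12 shared of each. H3K27ac islands covered 94.1%, 99.4% and 100% of these regions in positive tumors and H3K27me3, the Polycomb mark, 0%. In deleted tumors 7, 6 and 7 Foxa1/2 peaks were listed there.

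The density of the factors differed between chromosomes more for Nkx2-1 than for Foxa1/2. Nkx2-1 had between 9.49 peaks per Mb (chromosome 14) and 18.9 (chromosome 11) on autosomes, Foxa1/2 between 8.10 and 12.2 on the same chromosomes. Chromosome X held 3.05 and 2.57 peaks per Mb, against autosome medians of 11.98 and 9.55. All 4 libraries were from males, and the copy number of X was not accounted for in its density, distances or sharing. The share of Nkx2-1 peaks bound by Foxa1/2 was lowest on chromosome 11, at 41.0% (39.0 to 43.0), followed by chromosomes X (42.1%, 37.8 to 46.5), 7 (43.3%, 41.1 to 45.6) and 17 (43.4%, 40.7 to 46.1), whose intervals overlap. The highest was 50.9% (48.5 to 53.2) on chromosome 6. For Foxa1/2 peaks the autosomes lay between 57.6% and 64.05%, and chromosome X stood below them at 49.8% (45.0 to 54.6).

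The histone marks of positive tumors, which the classes did not use, differed most at Foxa1/2-only sites. The libraries of the marks came from a male and a female source, and 1 of their inputs also served an Nkx2-1 library. A peak counted as marked where an island overlapped it by at least 1 bp. H3K27ac overlapped 95.6% (95.3 to 95.9) of shared Foxa1/2 peaks, 91.01% (90.5 to 91.4) of Nkx2-1-only peaks and 81.3% (80.5 to 82.1) of Foxa1/2-only peaks. H3K4me3, the promoter mark, overlapped 70.5% (69.7 to 71.2), 65.9% (65.1 to 66.6) and 44.1% (43.1 to 45.2) in the same order. The H3K4me3 list held 41584 islands over 104 Mb, and these shares are not shares of promoters. Nkx2-1-only peaks exceeded Foxa1/2-only peaks by 9.40 ± 2.24 points for H3K27ac and by 20.9 ± 4.75 points for H3K4me3 (mean and SD over 20 chromosomes), with that direction on all 20. H3K4me1 overlapped nearly all peaks of every class, between 93.7% and 99.6%. H3K27me3 was rare, at 1.52%, 2.51% and 3.87%, with islands that covered 481 Mb. On chromosome X it reached 20.4%, 25.6% and 20.2%. The factor libraries were all from males and the mark libraries were not. Sex of the source and marking of bound sites therefore cannot be told apart on chromosome X.

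**Figure D5:**
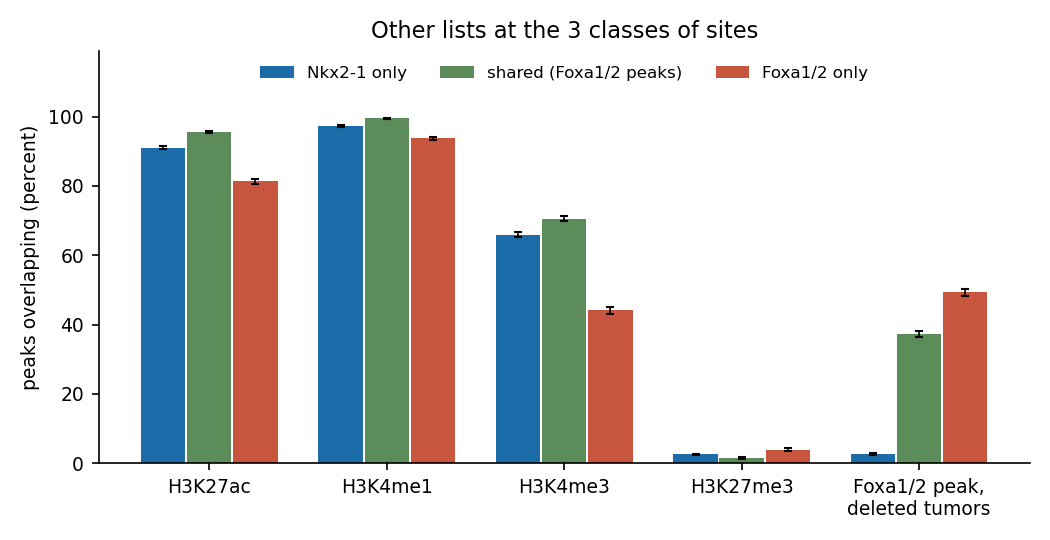
Percent of peaks (y axis, 95% Wilson intervals) overlapped by an island of each mark in positive tumors, and by a Foxa1/2 peak of deleted tumors, for Nkx2-1-only peaks, shared Foxa1/2 peaks and Foxa1/2-only peaks. H3K4me3 lay at 65.9%, 70.5% and 44.1% and deleted-tumor Foxa1/2 at 2.56%, 37.3% and 49.3% of the classes. The value of 2.56% is held down by the class itself, which has no Foxa1/2 peak in positive tumors.

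The difference in H3K4me3 was present among low-scoring and among high-scoring Foxa1/2 peaks. Neither score nor width was matched within these groups. In the Foxa1/2 list shared peaks were wider by 102.5 bp in score group 9 and by 168.5 bp in group 10. Among the 20% lowest-scoring peaks of the Foxa1/2 list it overlapped 64.8% (62.6 to 66.9) of shared and 41.1% (39.3 to 43.0) of unshared peaks, and among the highest-scoring 20% it overlapped 77.5% (76.1 to 78.7) and 52.2% (48.3 to 56.1). In the Nkx2-1 list the classes were close: 58.6% (56.2 to 61.0) and 57.6% (56.1 to 59.1) among the lowest-scoring 20%, 79.7% (78.5 to 80.8) and 75.3% (72.9 to 77.6) among the highest. Over chromosomes, shared exceeded unshared peaks in H3K4me3 by 25.2 ± 6.58 points in the Foxa1/2 list (20 of 20 chromosomes, 1.31 points on the lowest) and by 4.32 ± 4.19 points in the Nkx2-1 list (18 of 20).

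Among shared Foxa1/2 peaks, the distance to the Nkx2-1 summit went with what was found there in deleted tumors. A Foxa1/2 peak was also listed in deleted tumors at 33.2% (32.0 to 34.5) of the 5701 shared peaks with an Nkx2-1 summit within 50 bp, 36.4% (35.1 to 37.7) of the 5482 at 51 to 200 bp and 46.98% (45.2 to 48.8) of the 2963 further apart. At Foxa1/2-only peaks, which had a median score of 125, it was 49.3% (48.2 to 50.3). The closest pairs were below the widest on 19 of 20 chromosomes. They were so although their Foxa1/2 score was higher, with a median of 300 against 219, and higher-scoring peaks were more often present in deleted tumors. Their peaks were narrower, with median widths of 1039 against 1087 bp for Foxa1/2 and 1008 against 1217 bp for Nkx2-1. A wider peak can overlap another list more readily, and the shares were not compared at equal width. Among the 20% lowest-scoring Foxa1/2 peaks the shares were 5.29% (3.84 to 7.23) for close and 20.6% (17.1 to 24.6) for wide pairs, and among the highest-scoring 20% they were 63.6% (61.3 to 65.7) and 74.9% (71.5 to 78.0). Foxa1/2-only peaks stood above both at 29.9% (28.2 to 31.6) among the lowest-scoring and 89.2% (86.6 to 91.4) among the highest-scoring 20%.

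Wide pairs also carried more H3K4me3, at 85.8% (84.5 to 86.97) against 64.8% (63.6 to 66.1) of close pairs, lower in close pairs on 20 of 20 chromosomes. With H3K4me3 present, deleted tumors had a Foxa1/2 peak at 39.2% (37.6 to 40.8) of close and 49.5% (47.5 to 51.4) of wide pairs. Without the mark the values were 22.2% (20.4 to 24.1) and 31.99% (27.7 to 36.6). The difference by distance was thus present in both groups, on 19 and 17 of 20 chromosomes. Tumor type and sex of the mice cannot be told apart for Foxa1/2, since all deleted-tumor libraries were from females.

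Of the sites shared at the highest rank in both lists, the first lay on chromosome 1 at 74053941 to 74056424, with scores of 3100 for Nkx2-1 and 3189 for Foxa1/2. Its summits were 63 bp apart, at 74055749 and 74055812, and H3K27ac, H3K4me1 and H3K4me3 each covered 100% of it. The second, on chromosome 1 at 120539067 to 120541048, had scores of 2895 and 3109 and summits 140 bp apart with Foxa1/2 first. The third, on chromosome 10 at 67247776 to 67249557, had scores of 2750 and 3151 and summits 78 bp apart with Nkx2-1 first. All 3 had a Foxa1/2 peak in deleted tumors. The widest shared pair, on chromosome 3 at 108088197 to 108094574, joined a Foxa1/2 peak of 5627 bp to an Nkx2-1 peak of 2366 bp with summits 1704 bp apart, with 3 Foxa1/2 peaks of deleted tumors inside it.

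The highest-scoring Nkx2-1-only peaks, all with a score of 3100, were unlike each other. That on chromosome 16 at 96396522 to 96397952 lay under H3K27ac, H3K4me1 and H3K4me3 over 100% of its length, 32357 bp from the nearest Foxa1/2 summit. That on chromosome 19 at 6177825 to 6179244 was covered by H3K4me1 only. That on chromosome 17 at 39979660 to 39984035, 4376 bp wide, had no H3K27ac, and islands of H3K4me1, H3K4me3 and H3K27me3 each covered 96.8% of it. Those islands were denser in reads than 99.9% of the H3K4me3 list and were the densest of the H3K4me1 and H3K27me3 lists, so this place stands apart in each of those 3 lists. Whether the reads there come from 1 place in the genome was not tested. Its peak and islands are therefore not taken as evidence of binding or of marks. None of the 3 had a Foxa1/2 peak in deleted tumors. The widest Nkx2-1-only peak lay on chromosome 3 at 89030732 to 89035153 (4422 bp, score 2270), 4281 bp from a Foxa1/2 summit.

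The highest-scoring Foxa1/2-only peaks lay on chromosome 14 at 35161562 to 35163042 (score 3194), chromosome 7 at 137241422 to 137243114 (3134) and chromosome 1 at 52052825 to 52054808 (3100). The nearest Nkx2-1 summits were 2770, 30142 and 51877 bp away. H3K27ac and H3K4me1 covered 100% of each, H3K4me3 covered 0%, 77.6% and 60.5%, and each had a Foxa1/2 peak in deleted tumors. The widest Foxa1/2-only peak, on chromosome 1 at 90172295 to 90177389, had a score of only 219 over 5095 bp and lay 127906 bp from the nearest Nkx2-1 summit.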

How the data were processed

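Bowtie, SICER 1.1 and MACS 1.4.2 are listed in the submitters' processing notes without a role, as is the mm9 build. Peak names start with MACS, per the file headers, and each deposited peak carries a score from the authors' peak caller and a summit. The deposited islands carry a read count per island, not scaled for depth, per the file headers and values. The 2 files of each list were identical and counted as 1 list. Total reads are not given in the sources used here.

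Peak overlap, summit distances, nearest summits and grouping within 10 kb were computed in Python 3.11.15 with numpy 2.4.6, pandas 2.3.3 and scipy 1.17.1, and figures with matplotlib 3.10.9. The functions were tested on simulated peaks with set overlap and offsets. Chromosome length was taken as the span of all intervals used, and peaks moved past the end went on at the start. Peaks off the 20 main chromosomes (25 Nkx2-1, 14 Foxa1/2) entered counts but not chromosome values. No p-value was computed, since each group is 1 list. The peaks were moved in fixed steps, not shuffled at random. Coordinates are 1-based.

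Named regions are the 3 highest-scoring peaks and the widest of each class and the 3 groups with the most summits. Ties went to chromosome order, then to the lower start, so other peaks of the same score may be left unnamed. The members, classes, comparisons and alternatives were chosen with earlier results of these data known. The planned gene lists and motif searches need the mm9 genome and were not analysed here, nor were islands of deleted tumors.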

Additional observations from a re-analysis of the deposited data

How the results depend on the processing

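Of 48 alternatives for 10 results, 16 stayed within the interval of the value reported and 32 left it; autosomes only stayed within it for all 10. No paired analysis was possible because both files of each list are identical and hold merged libraries, and for the same reason no library could be left out. With an overlap of at least 50% of the shorter peak, 46.2% of Nkx2-1 and 59.8% of Foxa1/2 peaks were shared, summits lay 66 bp apart, 76.97% and 74.9% of shared peaks scored above the unshared median, and unshared peaks lay 12197 and 9756 bp from the other factor. With summits within 200 bp these were 37.5% and 48.5% shared, 72.99% and 71.3% above the median, and 8652 and 5338 bp. By construction, overlapping peaks with distant summits then count as unshared. With a score of at least 100 in both lists (21644 and 17293 peaks), 46.5% and 58.1% were shared, summits lay 67 bp apart, 74.7% and 71.9% were above the median, unshared peaks lay 16950 and 14197 bp away, and 49.6% and 42.2% had a summit of their own list within 10 kb. With the Nkx2-1 list reduced to its 23039 highest-scoring peaks the shares were 53.4% and 53.8%; since sharing is nearly all 1 to 1, equal lengths give nearly equal shares by construction. Then 74.8% of shared Nkx2-1 peaks were above the median, unshared peaks lay 12347 and 13367 bp away, which turns the order of the distances as deposited (12981 and 10641 bp), and 51.3% of Nkx2-1 summits were clustered. At 5 kb 39.1% and 32.1% were clustered and at 50 kb 89.6% and 84.9%. The order of the summits stayed between 49.4% and 49.6% in all settings.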
